A study of Mus musculus with 217 samples.

Results

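The genes described here encode the nuclear subunits of respiratory complexes II to V, the mitochondrial machinery that passes electrons to oxygen and makes ATP, in the granulosa cells and oocytes of ageing mice. They were taken from the count tables by symbol: every row beginning with Uqcr or Atp5, the numbered Cox4 to Cox8 subunits, Sdha to Sdhd, Cyc1 and Cycs, leaving out pseudogene (-ps) and Rik rows. This gave 49 of 53619 rows: 4 genes of complex II, 9 of complex III, cytochrome c (Cycs), 17 of complex IV, 9 of the F1 head and stalk and 6 of the Fo membrane part of complex V, and 3 other symbols (Atp5s, Atp5sl and Cox7a2l). All 49 were found in the GENCODE vM21 annotation of GRCm38. Subunits encoded by mitochondrial DNA are not analysed here.

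Complex II oxidizes succinate and feeds electrons to ubiquinone, complex III hands them to cytochrome c, and complex IV reduces oxygen with them. The proton gradient built on the way drives complex V, the ATP synthase, in which the F1 head makes ATP while the ring of c subunits in Fo turns. Granulosa cells are strongly glycolytic and supply the oocyte with pyruvate, which the oocyte oxidizes in its own mitochondria.

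The study gave mice resveratrol, a plant polyphenol, in their drinking water at 30 mg per L in DMSO from 2 months of age, or DMSO alone, and compared wild-type mice with Tet2 knockouts (Tet2 is an enzyme that oxidizes 5-methylcytosine) on a C57BL6/129 background. Granulosa cells came from follicles punctured after gonadotropin priming and were pooled. The labels give 500 cells per pool in 1 place and 50 in another. There were 6 groups of 3 pools: young (2 months) wild type and knockout, and old (10 months) wild type and knockout, each with control water or resveratrol. Single metaphase II oocytes numbered 171 in 10 groups of the same background: at 2 months wild type (18) and knockout (15); at 6 months wild-type control (20) and resveratrol (14) and knockout control (20) and resveratrol (20); at 10 months wild-type control (20) and resveratrol (14) and knockout control (15) and resveratrol (15). A further 27 C57BL6 oocytes came from 6-month controls (11), 10-month controls (6) and 10-month resveratrol mice (10), and 1 more, titled resveratrol but tagged control, was kept out of every group (its column was found by the last number of the heading). The young wild-type oocytes carry a knockout tag that contradicts their title; the title was followed. How the knockout was made and which animal gave which library are unknown here. In pools p-values thus measure the spread between libraries, which may be technical. In oocytes they measure how far the 10 group sums depart from additive effects of age, genotype and treatment.

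Total counts ranged from 470647 to 20537935 per granulosa pool, from 3386039 to 8775154 per oocyte and from 3470831 to 11358927 per C57BL6 oocyte. Of the young pools, all 3 wild-type pools and pools 1 and 3 labelled knockout were under 1000000 counts. Tet2 was not lower in the granulosa pools labelled knockout (8.27 to 21.5 CPM, counts scaled by TMM to a common library size) than in the wild-type pools (4.56 to 16.7 CPM), so these are called labelled knockout throughout; among the oocyte group sums it was 0.961 to 1.4 CPM in knockouts and 2.36 to 3.19 CPM in wild types. Granulosa markers took 0.121 to 0.568% of the counts of every pool and 0.00125 to 0.0207% of those of every C57BL6/129 oocyte. Oocyte markers took 0.627 to 3.96% of the oocytes' counts, the lowest value coming from 1 young knockout oocyte. In the 5 shallow young pools oocyte markers took 0.0104 to 0.0305%, against at most 0.00045% in the other 13 pools, where Zp2 and Nlrp5 were at 0; Figla was at 0 in all 18 pools. Macrophage and leukocyte markers took 0.0106 to 0.014% in young wild-type pools, 0.0121, 0.0996 and 0.00942% in young pools labelled knockout, 0.0183 to 0.0224% in old wild-type control pools, 0.0304 to 0.0442% in old wild-type resveratrol pools, 0.153 to 0.193% in old control pools labelled knockout and 0.0504 to 0.106% in old resveratrol pools labelled knockout.

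Promoters of these genes are known to carry sites for the nuclear respiratory factor Nrf1, for Ets factors such as Gabpa, and for Yy1 and Sp1. RefSeq promoter windows (GRCm38.p6, 250 bases before to 50 bases after a start) were at hand for 35 of the 49 members, 38 windows in all. The Nrf1 letters (GCGC, any 2 bases, GCGC) stood in 26.3% of the members' windows and in 6.23% of all 32851 windows, on either strand. The Ets letters CCGGAAG stood in 31.6% against 8.86%, the Sp1 letters GGGCGG in 34.2% against 35.7%, and the Yy1 letters (AAGATGG followed by CGG) in 2.63% (1 window, of Atp5j) against 0.852%. No motif holds the letters of another. The 120 bases before the start are printed for 8 of the 9 members that were called higher in 3 comparisons of granulosa pools below, which share pools with each other, with motif letters in capitals. The other is Cox6c.
Atp5h (GRCm38.p6, chr11:115419920-115420039, minus strand): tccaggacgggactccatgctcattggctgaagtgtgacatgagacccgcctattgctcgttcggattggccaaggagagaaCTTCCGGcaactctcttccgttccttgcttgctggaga
Atp5k (GRCm38.p6, chr5:108434400-108434519, minus strand): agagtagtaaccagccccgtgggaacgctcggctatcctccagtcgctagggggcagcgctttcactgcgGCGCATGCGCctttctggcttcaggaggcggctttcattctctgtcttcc
Atp5l (GRCm38.p6, chr9:44920743-44920862, minus strand): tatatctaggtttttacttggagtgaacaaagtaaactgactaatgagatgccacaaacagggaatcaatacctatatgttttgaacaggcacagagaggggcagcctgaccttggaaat
Cox5a (GRCm38.p6, chr9:57521112-57521231, plus strand): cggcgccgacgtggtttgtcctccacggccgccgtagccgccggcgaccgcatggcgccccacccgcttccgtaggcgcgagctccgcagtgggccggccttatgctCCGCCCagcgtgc
Cox6b1 (GRCm38.p6, chr7:30626115-30626234, minus strand): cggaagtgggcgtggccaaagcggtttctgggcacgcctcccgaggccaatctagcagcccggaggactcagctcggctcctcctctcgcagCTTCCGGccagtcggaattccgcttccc
Cox7a2 (GRCm38.p6, chr9:79759854-79759973, minus strand): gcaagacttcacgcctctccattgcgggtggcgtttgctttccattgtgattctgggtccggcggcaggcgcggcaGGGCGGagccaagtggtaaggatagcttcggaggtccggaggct
Cox8a (GRCm38.p6, chr19:7217617-7217736, minus strand): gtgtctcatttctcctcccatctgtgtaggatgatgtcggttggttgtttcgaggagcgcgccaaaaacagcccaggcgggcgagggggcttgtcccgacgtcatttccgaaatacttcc
Cycs (GRCm38.p6, chr6:50566570-50566689, minus strand): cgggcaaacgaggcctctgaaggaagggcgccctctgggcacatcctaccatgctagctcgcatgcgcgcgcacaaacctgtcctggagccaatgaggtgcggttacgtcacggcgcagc
Of these, Atp5h and Cox6b1 carry the Ets letters (as CTTCCGG on the printed strand), Atp5k the Nrf1 letters, and Cox5a (as CCGCCC) and Cox7a2 the Sp1 letters. The printed stretches of Atp5l, Cox8a and Cycs hold none of the 4 motifs. Their full windows, which the percentages use, do: Atp5l and Cox8a hold the Ets and Cycs the Sp1 letters. The full windows of Atp5h and Atp5k also hold the Nrf1 and the Ets letters, respectively. A match is a description of letters and shows no binding.

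Per transcript length, most members were far more abundant in granulosa pools than in oocytes. Levels between genes are given as TPM (counts per base of annotated exon, rescaled to the same total in every library). In 31 of 49 members the lowest of the 18 pools lay above the highest of the 171 oocytes, where 12.1% of the 22421 genes with a count and a length did so. The reverse held for Cox6b2 alone, where 11% of genes did so. The libraries overlapped for 16 members, and Cox8b had no count in either kind. The gap was not particular to the members, whose median share of counts was 1.39% in pools and 0.226% in oocytes. For complex I subunits it was 0.612 and 0.0675%, and for cytosolic ribosomal proteins 5.34 and 0.132%. Assembly factors of complexes II to V had 0.201 and 0.0839%, and tricarboxylic acid cycle enzymes 0.225 and 0.119%. Regulators of mitochondrial gene expression were closer, with 0.0378 and 0.0326%. Single cells and pools differ in cell number, so the RNA content of a cell is not measured by these shares.

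In complex II, the catalytic flavoprotein Sdha went the other way from its partners. Sdha stood at 46.9 TPM in pools (median of 18, range 30 to 114) and at 185 TPM in oocytes (median of 171, range 72.6 to 331). Sdhb, the iron-sulfur subunit that binds Sdha, stood at 226 TPM in pools (133 to 261) and at 2.95 TPM in oocytes (0 to 22.2). The membrane anchors were also higher in pools: Sdhc had medians of 160 TPM in pools and 79.7 TPM in oocytes, and Sdhd 498 and 49. Thus within the oocyte the 4 subunits of complex II ranged over 2.95 to 185 TPM at their medians, and in pools over 46.9 to 498.

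Complex III showed a wider spread. Uqcrc1 and Uqcrc2 encode the paired core proteins of this complex. Uqcrc2 was the most abundant complex III transcript of oocytes, at 593 TPM (145 to 998), and Uqcrc1 the least, at 0.208 TPM (0 to 17.5), with no read in 71 of 171 oocytes. In pools both core transcripts were close, with medians of 212 TPM for Uqcrc2 and 192 TPM for Uqcrc1. Cyc1, the cytochrome c1 subunit, was, like Uqcrc1, nearly absent from oocytes, with 198 TPM in pools (149 to 284) and 1.92 TPM in oocytes (0 to 14.2). Cycs, the mobile cytochrome c, differed less: 81 TPM in pools (49.6 to 125) and 42.1 TPM in oocytes (24.4 to 89.4), with overlapping libraries.

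In complex IV, Cox8a and Cox6a1 were among the highest in both cell types. Cox8a had 2110 TPM in pools (1180 to 2750) and 993 TPM in oocytes (545 to 1880), and Cox6a1 2440 TPM (1560 to 2960) and 684 TPM (133 to 2480). Cox4i1, a regulatory subunit, had 1260 TPM in pools and 37 TPM in oocytes, and Cox7c 709 and 4.46 TPM, with non-overlapping libraries for each. In complex V the catalytic beta subunit Atp5b was the most abundant member of the F1 head in both, at 840 TPM in pools (579 to 1100) and 419 TPM in oocytes (229 to 642). Its stalk partner Atp5j stood at 382 TPM in pools (296 to 530) and 1.88 TPM in oocytes (0 to 13.9). Every Fo member was low in oocytes, with medians from 2.54 TPM (Atp5j2) to 23.5 TPM (Atp5k), against 75.2 TPM (Atp5l) to 372 TPM (Atp5k) in pools. The order among Fo members depends on the length used. Atp5l has 6443 bases of annotated exon but a principal transcript of 544, and Atp5k has 616 and 371. By CPM the pool median of Atp5l, 189, was above that of Atp5k, 97.

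**Figure D1:**
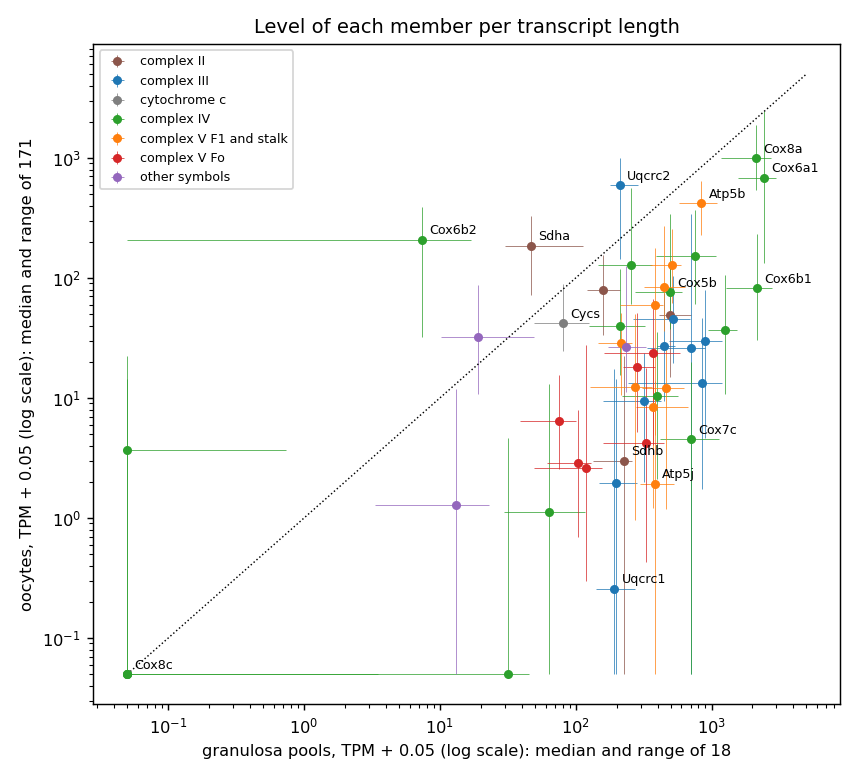
Each point is 1 of the 49 members; the x axis gives its median TPM over 18 granulosa pools and the y axis over 171 oocytes, both plus 0.05 on log scales, with bars from the lowest to the highest library and a dotted line of equal level. Of the 49 members 41 lie below the line and 5 above it (Cox6b2, Sdha, Uqcrc2, Cox6a2 and Atp5sl).

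Several complex IV and c-ring subunits exist as paralogs, and Cox6b switched its leading gene between the cell types. Cox6b2, which is known from the testis, made up a median of 72% of the Cox6b TPM of an oocyte (34.4 to 88.8) and 0.362% in a pool (0 to 0.667). Its level was 208 TPM in oocytes (32.4 to 390) against 7.37 TPM in pools (0 to 16.8), while the ubiquitous Cox6b1 had 82.1 and 2160 TPM. The C57BL6 oocytes had a like median share of Cox6b2, 75.5% (49.8 to 86.4). Of the 3 genes for the identical mature c subunit, Atp5g2 led in oocytes with a median of 71.2% of the family's TPM (36.8 to 90.9). Over all 18 pools Atp5g3 had a median of 48.1% (32.8 to 53.4) and Atp5g2 39% (32.1 to 55.3). By TPM, Atp5g2 had the higher group medians in young pools, 259 TPM against 237 TPM for Atp5g3 in wild type and 331 against 236 TPM in labelled knockouts. Atp5g3 had them in the 4 old groups. The order in young pools depends on the length used, here 1675 bases of exon for Atp5g2 and 2181 for Atp5g3. Their principal transcripts are nearly equal, 731 and 723 bases. By mean CPM Atp5g3 was the higher in young pools too, 152 against 141 CPM in wild type and 196 against 186 CPM in labelled knockouts.

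The families Cox4i, Cox6a, Cox7a, Cox7b and Cox8 had the same leading gene in both. Cox4i1 held a median of 95.1% of Cox4i in pools and 96.9% in oocytes, the rest being Cox4i2, the form known from lung and low oxygen. Cox6a2, the heart and muscle form, stood at 0 in the median pool and at 3.63 TPM in the median oocyte (0 to 22.4), and at 19.7 TPM in the median C57BL6 oocyte (3.12 to 36.5). Cox7a2 led the Cox7a family in both (72.7% and 84.9%); the muscle form Cox7a1 had 31.8 TPM in the median pool and was at 0 in 160 of 171 oocytes. Cox7b and Cox8a stood almost alone in their families. Cox7b2 and Cox8b had no read over all 171 oocytes, which allows up to 0.00385 CPM each, and Cox8b and Cox8c none over the 18 pools, which allows up to 0.0158 CPM. These limits cover counting error only, and reads of near-identical copies such as Atp5k, Atp5l, Uqcrh and Cycs and their pseudogenes may be divided by the counting.

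Across the granulosa groups, the members' summed share of counts was lowest in young and highest in old resveratrol pools. The share was 0.867, 1.05 and 0.874% in young wild-type pools, 1.17, 1.2 and 1.31% in old wild-type controls and 1.7, 1.5 and 1.53% with resveratrol. In pools labelled knockout it was 1.22, 1.08 and 0.977% when young, 1.57, 1.48 and 1.49% in old controls and 1.73, 1.58 and 1.58% with resveratrol. Thus young and old pools of either label did not overlap, nor did old wild-type controls with any other old group. In oocytes the share was 0.151 to 0.296% (median 0.226%, 171 oocytes), below every pool.

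**Figure D2:**
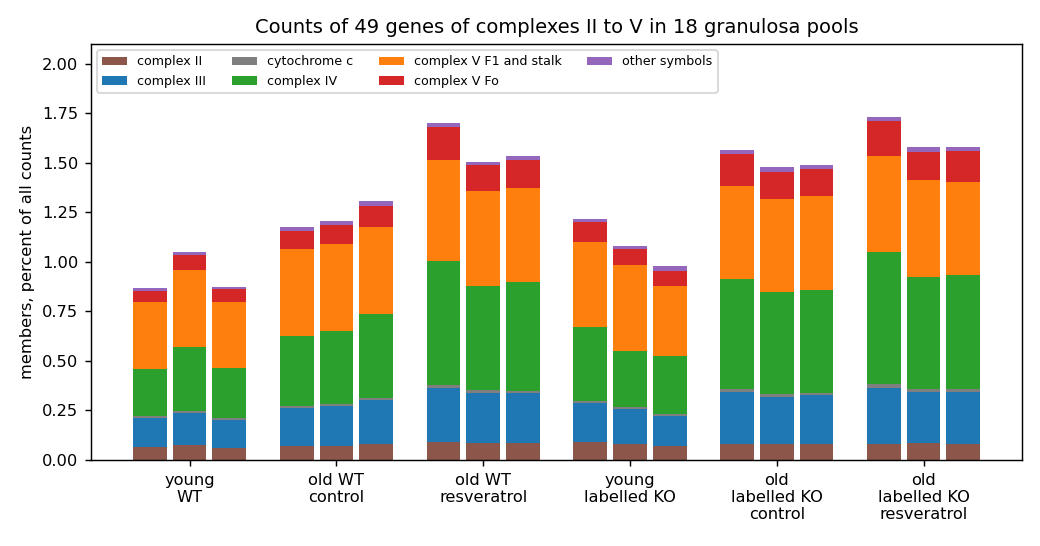
Stacked bars give the percent of all counts taken by the 49 members in each of 18 granulosa pools (y axis), by group (x axis), coloured by role. Old wild-type controls reach 1.17 to 1.31% and old wild-type resveratrol pools 1.5 to 1.7%; complex IV and the F1 head and stalk of complex V make up most of each bar.

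With age, many small subunits of complexes III, IV and V rose in pools labelled knockout. Of the 45 members tested in pools (Cox6a2, Cox7b2, Cox8b and Cox8c did not pass the filter on low counts), 22 were called higher and 0 lower, where 4.09% of 17558 genes were called higher and 1.08% lower. A gene is called when its p from edgeR's quasi-likelihood test, adjusted by Benjamini-Hochberg over all genes, is under 0.05. The median log2 change was 0.76 over the tested members and 0.10 over all genes. By role, 0 of 4 complex II members were called, 4 of 9 in complex III, Cycs, 10 of 13 in complex IV, 3 of 9 in the F1 head and stalk, 4 of 6 in Fo and 0 of 3 others.

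Uqcrh, the hinge protein of complex III, stood at 197, 155 and 161 CPM in young pools labelled knockout and at 395, 368 and 314 CPM in old control pools of that label. Its groups did not overlap, and the log2 change was 1.08 ± 0.21 (SE, n = 3 and 3; edgeR adjusted p = 0.00344). Uqcrb, a small subunit next to the ubiquinone site, went from 86.8, 194 and 205 to 493.1, 441 and 293 CPM (1.32 ± 0.27, edgeR adjusted p = 0.00562), and Uqcr10 from 165, 123 and 144 to 289, 236 and 259 CPM (0.88 ± 0.20, 0.0102). Cycs had 79.9, 80.1 and 77.9 CPM in the young pools, which lay close together, and 182, 173 and 127 CPM in the old ones (1.02 ± 0.21, edgeR adjusted p = 0.00586).

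Among complex IV subunits, Cox6c stood at 185, 189 and 195 CPM in the young and at 491, 441 and 359 CPM in the old pools (1.18 ± 0.19, edgeR adjusted p = 0.00124). Cox7a2 had 216, 175 and 185 against 452, 408 and 347 CPM (1.07 ± 0.20, 0.00333) and Cox7b 109, 127 and 137 against 300, 287 and 209 CPM (1.09 ± 0.21, 0.00368). None of these 3 overlapped. Cox4i1, Cox5a, Cox5b, Cox6b1, Cox6b2, Cox7c and Cox8a were also called.

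In complex V the strongest change was in Atp5k, the e subunit of Fo, which links ATP synthase dimers. It had 68.9, 37.5 and 51.9 CPM in young and 169, 142 and 119 CPM in old pools (1.51 ± 0.22, edgeR adjusted p = 0.000699). Atp5l, the g subunit beside it, had 127, 93.7 and 159 against 301, 264 and 220 CPM (1.08 ± 0.21, 0.00404). Atp5h, of the peripheral stalk, had 212, 185 and 154 against 405, 407 and 356 CPM (1.08 ± 0.18, 0.0015). Atp5e, the epsilon subunit of the rotor, had 198, 84.1 and 119 against 288, 283 and 248 CPM (1.07 ± 0.23, 0.00858). All 4 were higher in every old pool than in any young one. Atp5j, of the stalk, had 437, 356 and 297 against 708, 631 and 545 CPM (0.79 ± 0.19, edgeR adjusted p = 0.0158), and Atp5g3, a c-ring gene, 211, 227 and 152 against 437, 399 and 327 CPM (0.97 ± 0.21, 0.00833). The catalytic subunits did not follow them: Atp5b had 1579, 1529 and 1467 CPM in young and 1331, 1468 and 1619 CPM in old pools.

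The count of 22 became 1 when the spread was estimated from these 6 pools alone, 11 after every pool was thinned to the shallowest depth, and 11 to 26 when 1 pool was left out (13 without young pool 3 and 11 without old control pool 1). Without the 5 shallow pools it was 21, with the lone young pool left assumed to vary like the other groups. In complex II the lowest p belonged to Sdhb (0.47, edgeR adjusted p = 0.201). Sdha and Atp5sl lay below 0, at -0.41 and -0.96 (edgeR adjusted p = 0.0656 for Atp5sl). Under scaling by RLE size factors the median of all genes moved by 0.1, from 0.10 to 5.86e-05, and 16 members were called higher.

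In wild-type pools the same contrast of old control with young gave 1 member of 45 called higher, Uqcr10, and none called lower. Of all genes 0.843% were called higher and 0.683% lower. An unadjusted p under 0.05 was found in 27 members. Such counts, here and below, stand without the share of all genes, so they are no result about the members. Uqcr10 stood at 125, 113 and 85.2 CPM in young and at 178, 179 and 212 CPM in old control pools (0.81 ± 0.21, edgeR adjusted p = 0.0473), without overlap. Uqcr10 lost this call under RLE factors and when any 1 of the 6 pools was left out; 0 to 1 members were called in those 6 fits. The median change was 0.46 over members and 0.17 over all genes, and 30 members had old pools above every young pool, where 23.8% of genes did. All 3 young wild-type pools were shallow, so depth and age cannot be told apart here. The largest estimate, that of Cox7a1 (1.52, 0 and 1.89 against 5.12, 5.57 and 8.30 CPM, edgeR adjusted p = 0.104), rests on few reads. Of the other roles the lowest p was that of Sdhb (0.52, edgeR adjusted p = 0.231), Cycs (0.29, 0.548), Atp5o (0.64, 0.121), Atp5g3 (0.79, 0.0694) and Cox7a2l (0.47, 0.244). Whether age acted differently by label was tested as an interaction: 0 members were called in either direction by edgeR or DESeq2, and 6 had an unadjusted p under 0.05, where 0.0342% of genes were called higher and 0.103% lower. The lowest p values were those of Cox6c (0.72 ± 0.28, edgeR adjusted p = 0.52) and Atp5sl (-1.16 ± 0.45, 0.534).

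Resveratrol in old wild-type mice was compared with old wild-type controls. Of 45 members 13 were called higher and 0 lower, where 1.17% of all genes were called higher and 0.456% lower. The median log2 change was 0.69 over members and 0.01 over all genes, and in 37 members every resveratrol pool lay above every control pool, where 17.6% of genes did so. The 13 were Cycs, 7 subunits of complex IV, 2 of the F1 head and stalk and 3 of Fo, with 0 of complexes II and III. That 0 depends on the tool. DESeq2 called Sdhc (0.60, DESeq2 adjusted p = 0.0179) and Sdhd (0.53, 0.0238) of complex II higher. In complex III it called Uqcrh (0.67, DESeq2 adjusted p = 0.0167) and Uqcrq (0.82, 0.0244) higher.

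Cox8a, whose promoter stretch is printed above, stood at 377, 388 and 424 CPM in control pools and at 838, 695 and 704 CPM in resveratrol pools (0.91 ± 0.20, edgeR adjusted p = 0.03). Cox7c went from 258, 279 and 307 to 602, 460 and 530 CPM (0.92 ± 0.20, 0.0287), and Cox6b1, which sits on the intermembrane face of the enzyme, from 478, 472 and 534 to 998, 833 and 848 CPM (0.85 ± 0.18, 0.0273). Cycs had 70.7, 86.6 and 97.4 against 175, 149 and 137 CPM (0.86 ± 0.20, edgeR adjusted p = 0.0369). In complex V, Atp5k had 73.8, 75.7 and 77.4 against 137, 117 and 143 CPM (0.81 ± 0.20, edgeR adjusted p = 0.044) and Atp5l 144, 152 and 157 against 295, 238 and 262 CPM (0.81 ± 0.20, 0.044). Atp5g2, a c-ring gene, had 137, 144 and 161 against 298, 240 and 252 CPM (0.84 ± 0.21, 0.0443). For the stalk subunit Atp5h the values were 219, 222 and 245 against 427, 341 and 361 CPM (0.72 ± 0.18, 0.044). Atp5j, beside it in the stalk, had 404, 430 and 458 against 784, 717 and 660 CPM (0.74 ± 0.19, 0.0443). In each of these genes the lowest resveratrol pool lay above the highest control pool.

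In complex III, Uqcrq had 144, 155 and 201 CPM in control and 355, 261 and 292 CPM in resveratrol pools, with an edgeR adjusted p of 0.059. In complex II, Sdhc had 172, 171 and 209 against 304, 279 and 275 CPM (edgeR adjusted p = 0.0686), while Sdha had 114, 112 and 91.9 against 74.2, 83.1 and 83 CPM, an estimate of -0.40. Atp5b was level, with 1582, 1476 and 1406 against 1503, 1537 and 1544 CPM. The 13 calls rested on every pool: 0 members were called when any 1 of the 6 pools was left out, while the median change stayed between 0.58 and 0.76. Counts under other settings, given next, stand without the share of all genes called, so they do not show whether the members alone moved. The count was 0 at the shallowest depth, 3 with the pool number as a block and 6 with RLE factors, but 24 with DESeq2, 28 without the 5 shallow pools and 32 with the spread of these 6 pools alone.

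In old mice labelled knockout, resveratrol gave 0 called members in either direction by edgeR and by DESeq2, and 0 with an unadjusted p under 0.05; 0.0114% of all genes were called higher and 0.0171% lower. The median change was 0.11, and all 45 estimates lay between -0.29 and 0.33. Cox7c, with the lowest p of complex IV, had 494, 433 and 358 CPM in control and 678, 423 and 514 CPM in resveratrol pools, which overlapped (0.33 ± 0.20, edgeR adjusted p = 1). The difference between the responses of both labels was tested as an interaction. By edgeR and DESeq2 0 members were called, and by edgeR 0.148% of all genes were called lower and 0.0114% higher. Of 45 estimates 42 lay below 0, that is, a smaller response to resveratrol in the labelled knockouts. The median over members was -0.57, against -0.03 over all genes. An unadjusted p under 0.05 was found in 20 members. The shares of all genes below 0 and at that p are not given. Atp5k (-0.79 ± 0.28, edgeR adjusted p = 0.429) and Cox8a (-0.80 ± 0.28, 0.43) had the lowest p.

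**Figure D3:**
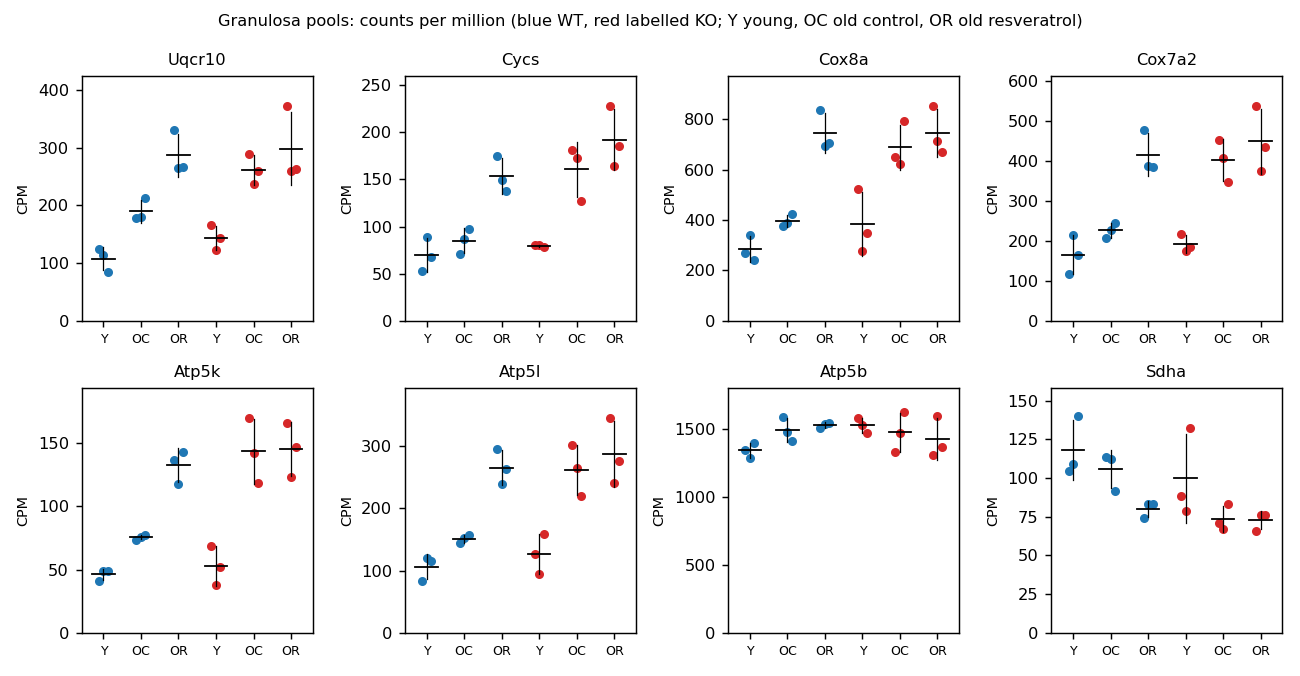
CPM of 8 members in each of 18 granulosa pools (points), with the group mean (line) and SD (bar); x axis, young (Y), old control (OC) and old resveratrol (OR), wild type in blue and labelled knockout in red. In wild type Cox8a, Cox7a2, Cycs, Atp5k and Atp5l are higher in OR than in OC, in labelled knockouts OC is already near OR, and Atp5b changes little.

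The genotype label among old control pools gave 14 members called higher and 0 lower of 45, where 2.83% of all genes were called higher and 1.03% lower, with a median change of 0.57 against 0.06 over all genes. In 34 members every labelled-knockout pool lay above every wild-type pool, where 16.7% of genes did so. The calls were Uqcrq and Uqcrh, Cycs, 6 genes of complex IV, Atp5h and Atp5e, Atp5k and Atp5l, and Cox7a2l. Cox7a2l is known as a factor of supercomplexes of complexes III and IV, and its function in these mice was not tested. These control pools are also the baseline or the comparison group of the contrasts above, so their values are not independent of those.

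Cox5a, the subunit that faces the matrix, stood at 151, 165 and 177 CPM in wild-type and at 314, 315 and 278 CPM in labelled-knockout old controls (0.88 ± 0.19, edgeR adjusted p = 0.0113). Cycs stood at 70.7, 86.6 and 97.4 against 182, 173 and 127 CPM (0.92 ± 0.20, 0.0101), and Atp5k at 73.8, 75.7 and 77.4 against 169, 142 and 119 CPM (0.92 ± 0.20, 0.00993). Cox7a2l had 112, 121 and 148 against 211, 229 and 188 CPM (0.72 ± 0.18, edgeR adjusted p = 0.0265), and Uqcrq 144, 155 and 201 against 315, 292 and 331 CPM (0.91 ± 0.23, 0.0302). None of these overlapped. Of the other calls, Uqcrh had 203, 208 and 234 against 395, 368 and 314 CPM (0.74 ± 0.20, edgeR adjusted p = 0.0363), Cox7a2 207, 227 and 245 against 452, 408 and 347 CPM (0.83 ± 0.20, 0.0189) and Cox8a 377, 388 and 424 against 648, 624 and 791 CPM (0.79 ± 0.20, 0.0277). In complex V, Atp5h had 219, 222 and 245 against 405, 407 and 356 CPM (0.77 ± 0.18, edgeR adjusted p = 0.0159), Atp5e 139, 140 and 155 against 288, 283 and 248 CPM (0.91 ± 0.22, 0.0208) and Atp5l 144, 152 and 157 against 301, 264 and 220 CPM (0.79 ± 0.20, 0.0267). These too were apart in every pool. Sdha lay lower without being called by edgeR (-0.53 ± 0.19, edgeR adjusted p = 0.134), and DESeq2 called it lower (-0.57, DESeq2 adjusted p = 0.0388). Leaving out 1 pool gave 0 to 11 calls: 0 without wild-type control pool 1 or 2 or labelled-knockout control pool 1 or 2, 5 without wild-type control pool 3 and 11 without labelled-knockout control pool 3. At the shallowest depth 4 were called.

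Among young pools the label gave 0 calls by edgeR and by DESeq2, with 9 members at an unadjusted p under 0.05 and a median of 0.26, where 0.103% of genes were called higher and 0.0114% lower. Cox7a2l had 100, 99.2 and 75.7 CPM in wild-type and 143, 129 and 156 CPM in labelled-knockout pools (0.63 ± 0.20, edgeR adjusted p = 0.271). Among old resveratrol pools it also gave 0 calls by both tools, with 1 member at an unadjusted p under 0.05 (Cox7a2l, 0.48 ± 0.18, edgeR adjusted p = 0.273) and a median of 0.01, where 0.638% of genes were called higher and 0.427% lower.

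**Figure D4:**
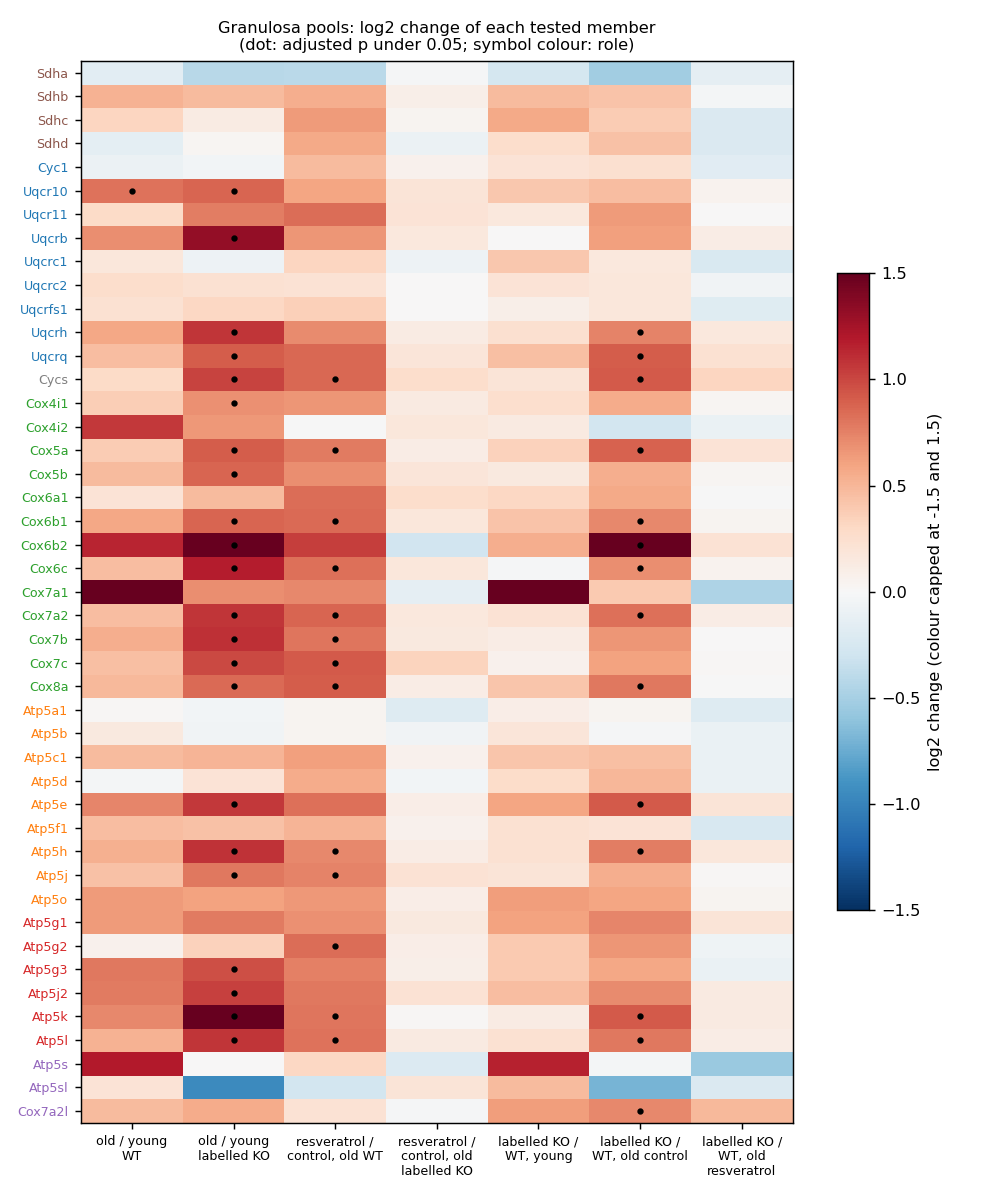
Log2 change of each of 45 tested members (rows, symbols coloured by role) in 7 contrasts of granulosa pools (columns); red is higher and blue lower in the first-named group, colours stop at -1.5 and 1.5, and dots mark an adjusted p under 0.05. The 22, 13 and 14 called members of age in labelled knockouts, resveratrol in wild type and the label in old controls lie mostly among small subunits, and Sdha is blue in those columns.

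The members that were called were mostly those with short transcripts. Of the 45, 25 have a principal transcript (the APPRIS choice in the annotation) under 1000 bases. Of these, 19 of 25 were called higher with age in labelled knockouts, against 3 of the 20 longer members. Of all 1421 tested genes with such short transcripts 18.4% were called higher. With resveratrol in wild type 11 of 25 short members were called higher, where 6.47% of short genes were, against 2 of 20 longer ones. With the label in old controls it was 11 of 25, where 8.02% of short genes were, against 3 of 20. Estimates above 0, called or not, were more widespread. They were found in 25 of 25 short and 14 of 20 longer members with age. With resveratrol it was 24 and 18, and with the label 24 and 16. The share of all genes above 0 is not given. The median change of the short members was 0.91, 0.79 and 0.67 in these 3 contrasts and that of the longer ones 0.21, 0.49 and 0.31. The median over all tested short genes was 0.63, 0.49 and 0.40, against 0.10, 0.01 and 0.06 over all genes. The longer members called in any of the 3 were Uqcrq, Cycs, Cox7b (1001 bases) and Cox7a2l. The part of transcript length in these results was not tested.

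**Figure D5:**
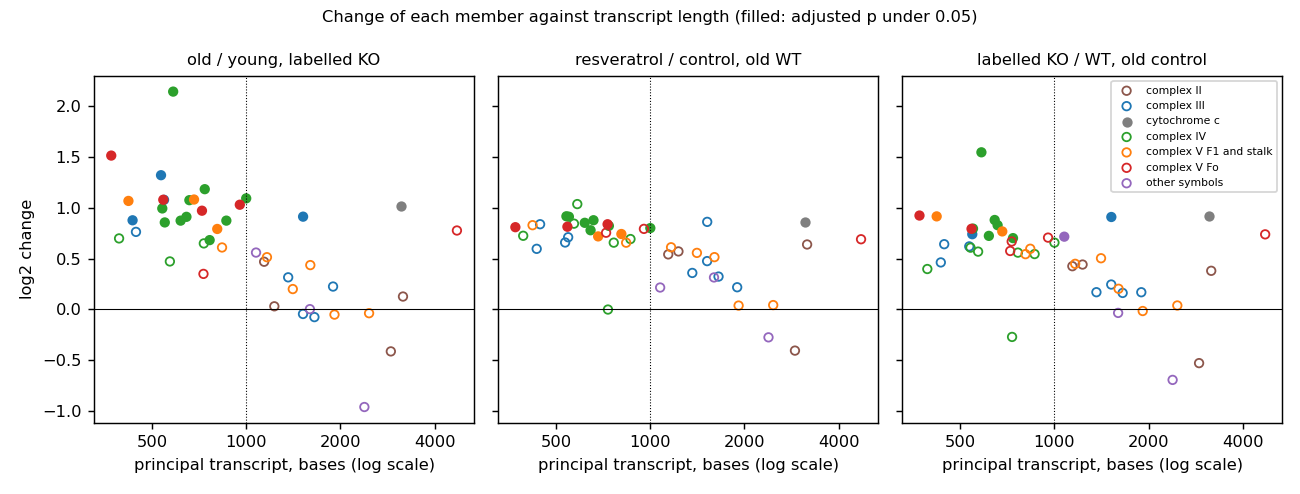
Log2 change of each tested member (y axis) against the length of its principal transcript in bases (x axis, log scale, dotted line at 1000) in 3 contrasts of granulosa pools, coloured by role and filled where the adjusted p is under 0.05. Most filled points lie left of the line. Right of it, Sdha lies below 0 and Atp5b near 0 in each contrast, while Cycs lies well above 0.

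Other gene lists were counted in the same 3 contrasts, where 4.09%, 1.17% and 2.83% of all genes were called higher. Of 37 complex I subunits, 23 were called higher with age in labelled knockouts, 9 with resveratrol in wild type and 7 with the label in old controls, with 0 lower in each, and Ndufa3 had the lowest p with age (1.15 ± 0.21, edgeR adjusted p = 0.00276). Of 78 tested cytosolic ribosomal proteins, 62, 17 and 9 were called higher. The assembly factors of complexes II to V gave 5, 1 and 1 of 36, and a single call is no result about that list. Cox17, the copper chaperone of complex IV, was called with age (1.08 ± 0.20, edgeR adjusted p = 0.00303). None of 17 tricarboxylic acid cycle enzymes and none of 15 tested regulators, among them Nrf1, Gabpa and Tfam, was called in any of the 9 contrasts of pools. Macrophage and leukocyte markers were called higher in 8, 6 and 14 of 17, and 5 of 6 tested oocyte markers were called lower with age in both labels. The part of other cell types and of depth in the members' changes was not tested, and in pools fewer cells of a type cannot be told apart from less RNA per cell.

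Single oocytes of the same background showed no called member. The counts of each group were summed and the 10 sums fitted with age, genotype and treatment. Errors and p-values thus measure departure of the sums from additive effects, not the spread between oocytes. Tested were 46 members (not Cox7a1, Cox7b2 and Cox8b). By edgeR 0 members were called for 10 against 2 months (0.00481% of 20806 genes called either way; 4 members at an unadjusted p under 0.05), 6 against 2 months (0% called; 7 members), 10 against 6 months (0.00481%; 14 members), genotype (0.139%; 9 members), resveratrol (0%; 1 member) or the resveratrol by genotype interaction (0%; 5 members). DESeq2 called Sdha lower at 10 than at 2 months, and Cox5a higher and Uqcr11 lower at 10 than at 6 months. In knockouts it called Cox7a2l and Atp5s higher and Sdha lower. It called Uqcr11 lower in the interaction, and 0 members for resveratrol or 6 against 2 months. The shares of all genes called by DESeq2, or at an unadjusted p under 0.05, are not given here.

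The lowest p among all members was that of Cox7a2l for genotype, 0.63 ± 0.12 higher in knockouts (edgeR adjusted p = 0.0811). Cox7a2l ranged from 5.68 to 11.5 CPM (median 7.95) in young wild-type oocytes and from 6.46 to 51 CPM (median 13.2) in young knockouts, from 5.88 to 16.8 CPM (median 9.2) in old wild-type controls and from 7.6 to 28 CPM (median 14.6) in old knockout controls, with overlap throughout. Sdha was 0.38 ± 0.10 lower in knockouts (edgeR adjusted p = 0.171) and 0.55 ± 0.15 lower at 10 than at 2 months (0.201). Its median was 237 CPM in young wild type (201 to 334), 207 CPM in old wild-type controls (96.5 to 352) and 157 CPM in old knockout controls (101 to 200). The group sums were close at 2 months, with 258 CPM of Sdha in knockouts and 265 CPM in wild type. At 6 months Sdha had 268 CPM in wild-type controls and 263 CPM with resveratrol, against 193 and 186 CPM in knockouts. Cox5a was 0.60 ± 0.13 higher at 10 than at 6 months (edgeR adjusted p = 0.11), and Uqcr11 1.47 ± 0.33 lower in log2 (0.113).

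The young wild-type oocytes stood lowest. Their members took 0.181 to 0.225% of counts (median 0.198%), against 0.18 to 0.283% (median 0.248%) in young knockouts. In the ratio of these 2 sums 41 of 46 members lay above 0, with a median of 0.53, while the 4 other genotype contrasts had medians of 0.01 to 0.09. Old wild-type controls against young wild type gave 37 of 46 above 0 and a median of 0.50, and old knockout controls against young knockouts 23 of 46 and -0.01. These ratios of single sums have no test, and the share of all genes above 0 is not given beside them. The young wild-type group is the one whose tag contradicts its title. Its sum had 3.1 CPM of Tet2, within the 2.36 to 3.19 CPM of the other wild-type sums and above the knockout sums (0.961 to 1.4 CPM). Cox8a, for example, had a median of 129 CPM (94.2 to 172) in young wild type and of 226 CPM (116 to 340) in young knockouts, and Cox4i1 8.56 CPM (4.52 to 14.1) and 17.5 CPM (11.6 to 26.3).

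In 3 transcripts that are low in oocytes, picked after their values were seen, the 6-month knockout controls had the highest medians. The 6-month knockouts given resveratrol followed. Uqcrc1 had a median of 3.7 CPM in the controls (0 to 20.4) and 0.976 CPM with resveratrol (0 to 9.18), against medians of 0 to 0.462 CPM in the other 8 groups. Sdhb had medians of 4.78 CPM (1.17 to 14.1) and 2.58 CPM (0.295 to 7.14), against medians of at most 2.09 CPM. Atp5j had 6.85 CPM (1.67 to 12.3) and 3.07 CPM (0.244 to 12.4), against 0.68 to 2.27 CPM. The libraries overlapped with those of other groups in all 3 genes. The order was not particular to these: in the group sums Atp5d and Atp5g1 had it too. Cyc1, Uqcrb, Atp5h and Cox7c were also highest in the 6-month knockout controls, while other low members such as Atp5e and Atp5k were not. Granulosa markers took 0.00125 to 0.0207% of the counts of the 6-month knockout controls (median 0.0101%), where the medians of the other groups, the 6-month knockouts with resveratrol included, were 0.00294 to 0.00611%. Its part in these levels was not tested.

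C57BL6 oocytes gave 1 sum per group and so no test. The members took 0.194 to 0.22% of counts in the 6 old control oocytes, below every one of the 11 middle-aged controls (0.225 to 0.296%) and of the 10 old resveratrol oocytes (0.223 to 0.294%). The ungrouped oocyte, tagged control, had 0.226%, so the old controls would overlap both other groups if it were added by its tag. Between old and middle-aged controls, 25 members reached 10 CPM in either sum, of which 7 were lower and 1 higher by more than 1.5-fold, where 16.2% and 13.7% of 7498 genes were. The 7 became 3 without TMM and 3 by medians over oocytes. The lower members were led by Atp5o, the subunit that joins F1 to the stalk (34.2 against 66.2 CPM, log2 ratio -0.95, 95% counting interval -1.05 to -0.86), Cox6a1 (196 against 359 CPM, -0.88) and Cox5a (70.6 against 117 CPM, -0.73). The highest ratios were those of Sdhd (19.2 against 9.73 CPM, 0.98, interval 0.81 to 1.16), Cox6b1 (17.3 against 13 CPM, 0.42) and Atp5l (12.3 against 11.7 CPM, 0.08). Cox6a1 ranged from 149 to 277 CPM (median 206) in old and from 213 to 545 CPM (median 373) in middle-aged controls, which overlap.

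Between old resveratrol and old control oocytes, 26 members reached 10 CPM, of which 7 were higher and 0 lower by more than 1.5-fold, where 3.86% and 2.52% of 7389 genes were. The 7 became 4 when the ungrouped oocyte was added by its treatment tag. The highest ratios were those of Uqcr11, a small complex III subunit (11.8 against 4.68 CPM, log2 ratio 1.34, interval 1.107 to 1.58), Cox6c (71.1 against 38.9 CPM, 0.87) and Uqcrh (25.3 against 15.1 CPM, 0.75). The lowest were Sdha (152 against 163 CPM, -0.10), Cox5a (66.3 against 70.6 CPM, -0.09) and Atp5f1 (31.8 against 33 CPM, -0.05). Both contrasts share the old control sum, so its own level enters both with opposite sign, and the intervals cover counting error only. In the C57BL6/129 oocytes resveratrol gave medians over members of 0.14, -0.04, -0.01 and -0.09 in the 4 contrasts of single sums.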

How the data were processed

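Granulosa pools and single oocytes were profiled with Smart-seq2, which amplifies full-length polyadenylated RNA. The values are raw counts per gene as deposited by the authors. Per the submitters' processing notes the tools include HISAT2 2.1.0 (an aligner), featureCounts (a counter) and DESeq2, with mm10 as the build. Settings, annotation and strand are unknown here, and reads of overlapping genes and pseudogene copies may not be told apart. Genes were filtered with filterByExpr (minimum count 10), scaled by TMM and tested with edgeR 4.0.16 (quasi-likelihood, R 4.3.3), all 6 granulosa groups in 1 model and 10 oocyte group sums in another, since no animal is named; p-values were adjusted by Benjamini-Hochberg over all genes. DESeq2 1.42.0 was an alternative. Errors of log2 changes are standard errors. Lengths came from GENCODE vM21.

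Tested on simulated data, the resveratrol contrast in wild-type pools (17558 genes) called 100% of 50 genes raised 4-fold and 8% of 50 raised 2-fold. The oocyte contrast (20806 genes) called 100% and 46%. Every simulated gene had the same spread and the unchanged genes did not differ between groups, so these rates need not hold for the members. By rule, up to 3 called members of a role with the lowest p were named, or the lowest if none was called, and in C57BL6 oocytes the 3 highest and 3 lowest ratios. Sdha, Atp5b and the examples from single oocyte groups were named after their values were seen. Members and lists were chosen with earlier results of these data known.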

Additional observations from a re-analysis of the deposited data

Results flagged for a closer look

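Among the 6 old C57BL6 control oocytes, the highest Sdhd level, 27.0 CPM, stood apart from the next, 19.6 CPM, by 0.649 of the group's range. Among the 10 old C57BL6 resveratrol oocytes, the highest Cox6b1 level, 64.3 CPM, stood apart from the next, 35.8 CPM, by 0.6 of the range. Of 24 values examined this way 2 stood apart, and chance gives about 1 in 20. The C57BL6 oocyte kept out of every group had 0.226% of its counts in the 49 genes, above the highest old control oocyte, 0.22%.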

How the results depend on the processing

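All called members kept a change above 0 under every alternative run in the granulosa pools, but the number called did not hold. With RLE size factors the members called higher became 0 with age in wild type and 6 with resveratrol in wild type. Without a filter on low counts they became 5 with age in wild type. With DESeq2 they became 24 with resveratrol in wild type. With only the groups compared they became 3 and 1 with age in wild type and labelled knockouts and 32 with resveratrol in wild type. At one depth they became 11 with age in labelled knockouts, 0 with resveratrol in wild type and 4 with the label in old controls, and without the 5 shallow pools 28 with resveratrol in wild type. Members called lower became 1 with age in labelled knockouts under RLE factors, no filter and DESeq2, and 1 with the label in old controls under DESeq2, with the compared pools alone and without the shallow pools. Leaving out 1 pool gave 0 to 1 higher with age in wild type, 11 to 26 higher and 0 to 1 lower with age in labelled knockouts, 0 to 0 with resveratrol in wild type and 0 to 11 with the label in old controls. The share of all genes called under each alternative is not given here, so these counts do not show whether the members alone moved. The cause was not tested.

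With the replicate block, 3 members were called for resveratrol in wild type, and no other count moved by over 1.5 times. The numbers only name the pools: over 45 pairs of same-numbered pools the deviations correlated from -0.24 to 0.186, with 4 over 0.1.

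In oocytes DESeq2 called 1 member lower at 10 against 2 months, and 1 higher and 1 lower at 10 against 6 months. It called 2 higher and 1 lower for genotype and 1 lower in the interaction. Without the filter 1 was called lower at 10 against 6 months. The share of all genes called by either alternative is not given. Sums per first number of the column heading, chosen after seeing the data and of unknown meaning, gave 4 higher and 1 lower, 1 and 1, 4 and 7, and 5 and 1 for 10 against 2, 6 against 2, 10 against 6 months and genotype, where 2213, 629, 2846 and 1507 of all genes were called, so these counts are no result about the members. Uncalled values changed sign: Cycs at 6 against 2 months to 0.005377 (RLE), 0.005209 (DESeq2), 0.07184 (heading sums) and, without 1 sum, between -0.2268 and 0.2195; without 1 sum the ranges were -0.02809 to 0.2424 (Atp5sl) and -0.131 to 0.05455 (Cycs) for resveratrol, -0.0544 to 0.3622 for Cycs in the interaction and -1.633 to 0.2616 for Atp5s at 10 against 2 months; and in pools Atp5g1 for the label in old resveratrol at one depth (-0.01596).

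In C57BL6 oocytes 3 members were lower with age without TMM and 3 by medians over oocytes, and 4 higher with resveratrol when the ungrouped oocyte was added by its treatment tag. Without the 10 most abundant genes, chosen after seeing the data, the mean shares became 1.307, 1.491 and 1.917% in young, old control and old resveratrol wild type and 1.452, 1.838 and 1.918% in labelled knockouts. In the simulated data, with 1 spread for all genes, 8% of 2-fold rises were called in pools and 46% in oocyte sums. These rates need not hold for the members, of which 13 were called in the real pool contrast. A count of 0 does not show that members were alike.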
